A study of Mus musculus with 2 samples.

Results

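The output side of the circadian clock was examined in the small intestine of mice on 2 diets, through 8 genes. They are the PAR bZIP activators Dbp, Tef and Hlf, the bZIP repressor Nfil3, the bHLH repressors Bhlhe40 and Bhlhe41, the cell cycle kinase Wee1 and the deubiquitinase Usp2. Every non-control probe named for one of these 8 genes was taken, which gave 14 of the 41174 probes on the array. The genes were put together with the ratios between these diets in view, so their ratios are a description and carry no test. Of the 14 probes, 12 were measured, and they covered 7 of the 8 genes. The exception was Bhlhe41, neither of whose probes was well above background in any channel.

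The mice were C57BL/6, were 6 to 8 weeks of age, and gave small intestine RNA. One diet was a conventional chow (Conv). The other was a food antigen-free diet (FAF), which contains amino acids, on which mice were kept for up to 5 generations. The labels speak of specific-pathogen-free and of germ-free mice without saying which gave this RNA, and they give neither the hour of collection nor the number of mice behind a sample. Each diet is represented by 1 RNA sample, and the same pair of RNAs was hybridised to 2 Agilent two-colour arrays, once with FAF in Cy5 and once with FAF in Cy3. The labels thus describe a technical dye swap with no replicate of a diet, so no test between the diets exists and no p-value is given.

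The clock of mammalian cells is a feedback loop in which CLOCK and BMAL1 (the product of Arntl) bind E-boxes and drive genes that later repress them. DBP, TEF and HLF belong to the output of that loop. They share a basic leucine zipper next to a region rich in proline and acidic residues (PAR), and they activate genes that carry a D-box. NFIL3, also called E4BP4, binds the same D-box and represses, and it is known in the liver to cycle in the opposite phase to DBP. The orphan receptors REV-ERB alpha and beta (Nr1d1 and Nr1d2) repress Nfil3 and Arntl through elements called ROREs. In the liver and kidney the PAR bZIP factors are known as drivers of rhythmic drug metabolism.

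Promoter sequences were found in RefSeq (build GRCm38.p6) for 6 of the 8 genes, in windows of 250 bases before to 50 bases after each of 7 annotated start sites. They are shown because the activators and Nfil3 had ratios of opposite sign, and clock factors are known to bind short elements. The part of such elements in these ratios was not tested. The E-box CACGTG, which reads the same on both strands, lay in both Tef windows and in that of Bhlhe41, and in 7.15% of all 32851 windows. The RORE core AGGTCA, searched on both strands, lay in the Nfil3 window alone among those of the members, 12 bases before the start site, and in 16.3% of all windows. The D-box, searched as TTATGTAA and TTACGTAA on both strands, was not found in any member window and lay in 1.06% of all windows. The windows of Dbp, Hlf and Usp2 held none of these letters, which says nothing about sites elsewhere in these genes. In the following stretches, written 5′ to 3′ on the strand of the gene, capitals mark these motifs. The Tef stretches, upstream of its first and second start site, are chr15:81802523-81802672 and chr15:81811264-81811413 on the plus strand. That of Dbp is chr7:45704997-45705096 on the plus strand, which ends 151 bases before the start site. Those of Hlf and Nfil3 are chr11:90390918-90391067 and chr13:52981040-52981189, both on the minus strand. Each ends at the base before the start site, except that of Dbp.
Tef, first start site: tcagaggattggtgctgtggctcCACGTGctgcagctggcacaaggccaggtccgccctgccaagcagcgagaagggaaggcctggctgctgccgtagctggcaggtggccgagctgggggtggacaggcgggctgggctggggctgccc
Tef, second start site: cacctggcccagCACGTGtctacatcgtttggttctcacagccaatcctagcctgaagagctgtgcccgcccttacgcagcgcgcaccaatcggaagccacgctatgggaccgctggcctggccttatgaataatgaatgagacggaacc
Dbp: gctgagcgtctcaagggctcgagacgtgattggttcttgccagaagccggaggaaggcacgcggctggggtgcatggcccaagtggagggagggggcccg
Hlf: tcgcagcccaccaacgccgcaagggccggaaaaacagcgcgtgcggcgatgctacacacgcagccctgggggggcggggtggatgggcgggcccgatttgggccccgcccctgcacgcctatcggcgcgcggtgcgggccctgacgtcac
Nfil3: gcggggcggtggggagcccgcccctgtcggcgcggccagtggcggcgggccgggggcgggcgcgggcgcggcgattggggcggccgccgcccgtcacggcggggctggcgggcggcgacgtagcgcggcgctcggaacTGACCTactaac

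The PAR bZIP activators were all higher in FAF. Dbp, named for its binding to the D site of the albumin promoter, had processed intensities of 20625 and 22236 in Conv and of 84173 and 88854 in FAF, on the array with FAF in Cy5 and that with FAF in Cy3. The values of a diet differed little between the dyes. Here and below, the 2 values of a diet are technical readings of 1 RNA sample. The log2 ratio of FAF over Conv was 2.02 on the array with FAF in Cy5 and 1.99 on the other. Their mean was 2.0 ± 0.02, or 4.01-fold, where the figure after the ± sign is the distance of either array from the mean. That distance holds only technical error of dyes and hybridisation, since no second mouse or pool was measured. The probe lies at chr7:52965265-52965324 on the plus strand in build mm9, the build of the array files, and is the only one for Dbp.

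Hlf, first known from a fusion gene in leukaemia, had intensities of 234 and 249 in Conv and of 1501 and 1419 in FAF. Its ratio was 2.13 with FAF in Cy5 and 2.0 with FAF in Cy3, with a mean of 2.07 ± 0.06, or 4.18-fold. Among the 17162 measured genes, 27 had a higher ratio than Hlf and 30 a higher ratio than Dbp. The single Hlf probe is at chr11:90199978-90200037 in mm9, on the minus strand. The scanner software's own ratio, formed without the offset of 50 that was added to the signals here, put Hlf at 2.60 and Dbp at 2.01.

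Tef, the thyrotroph embryonic factor, was represented by 4 probes, all with a higher signal in FAF on both arrays. The brightest, probe 1 (chr15:81656928-81656987 in mm9, plus strand), had intensities of 1929 and 1865 in Conv and of 6055 and 6111 in FAF. Its ratio was 1.63 ± 0.02, or 3.11-fold, and 72 genes stood above it. The other probes were far dimmer and had smaller ratios, of 0.75 ± 0.06 for probe 2, 0.50 ± 0.10 for probe 3 and 0.28 ± 0.04 for probe 4. The mean over the 4 probes was 0.79, which is under the 2-fold limit used below.

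The Tef probes were closer to each other by the software's own ratio, at 1.68, 1.81, 1.45 and 1.76 in the same order. With an offset of 10 in place of 50 they stood at 1.68, 1.30, 0.87 and 0.58, so the ratios of the dim probes moved with the offset and that of probe 1 hardly did. Probe 4 had intensities of 19.4 and 14.8 in Conv, not well above background on either array, and of 57.7 and 57.3 in FAF, well above it on both. Its fold is therefore read as a bound, at least 1.22-fold higher in FAF. Setting its Conv signal no lower than the dimmest signal called well above background left this fold unchanged. The bound is thus the ratio as formed with the offset of 50. Probe 2 had 54.8 and 38.4 in Conv against 152 and 169 in FAF. Probe 3 had 47.8 and 50.9 against 167 and 109, and so the widest gap between the FAF values. The probes lie at different places in the gene. Probe 1 starts at base 3785 of the Tef transcript, probe 2 at base 1075 and probe 4 at base 719. Probe 4 spans 2106 positions of the genome with 60 bases and so crosses an intron, and probe 3 was designed on another transcript, known to Ensembl. The first 30 bases of each 60-base probe, shown since the ratios of these probes differ, are as follows.
Tef probe 1: aaattttctagaaaaaggcaaagatgattt
Tef probe 2: gcgtacctgctctaggagcactcacgtctc
Tef probe 3: ggagtgtatatcactgttagagcattttac
Tef probe 4: agccaagaaagtctttgtccctgatgaaca

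**Figure D1:**
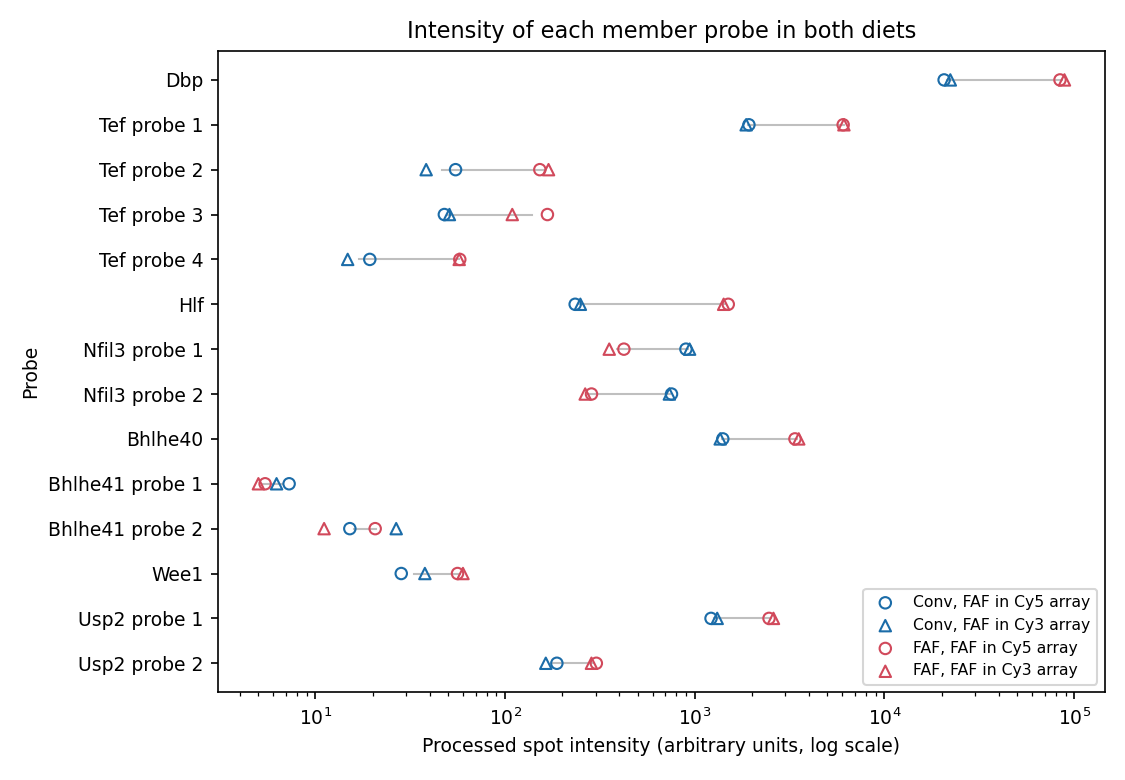
Processed spot intensity, in arbitrary units on a log scale, of each of the 14 member probes in Conv (blue) and FAF (red), on the array with FAF in Cy5 (circles) and that with FAF in Cy3 (triangles). Grey lines join the means of the diets. Dbp, Tef, Hlf, Bhlhe40, Wee1 and Usp2 lie higher in FAF on both arrays, both Nfil3 probes lie higher in Conv, and the Bhlhe41 probes are at 26.7 or less.

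Nfil3, the repressor on the D-box, was lower in FAF on both of its probes. Probe 1, the brighter by the mean signal of both arrays, had intensities of 898 and 939 in Conv and of 423 and 354 in FAF. Its ratio was -0.85 with FAF in Cy5 and -1.15 with FAF in Cy3, with a mean of -1.0 ± 0.15, or 2.0-fold lower. Probe 2 had 754 and 734 in Conv and 285 and 264 in FAF, and a ratio of -1.09 ± 0.08. Of the 17162 genes, 149 had a lower ratio than the brighter Nfil3 probe. The probes lie close together, at chr13:53062585-53062644 and chr13:53062869-53062928 on the minus strand in mm9. The software's ratios were -1.25 and -1.44.

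**Figure D2:**
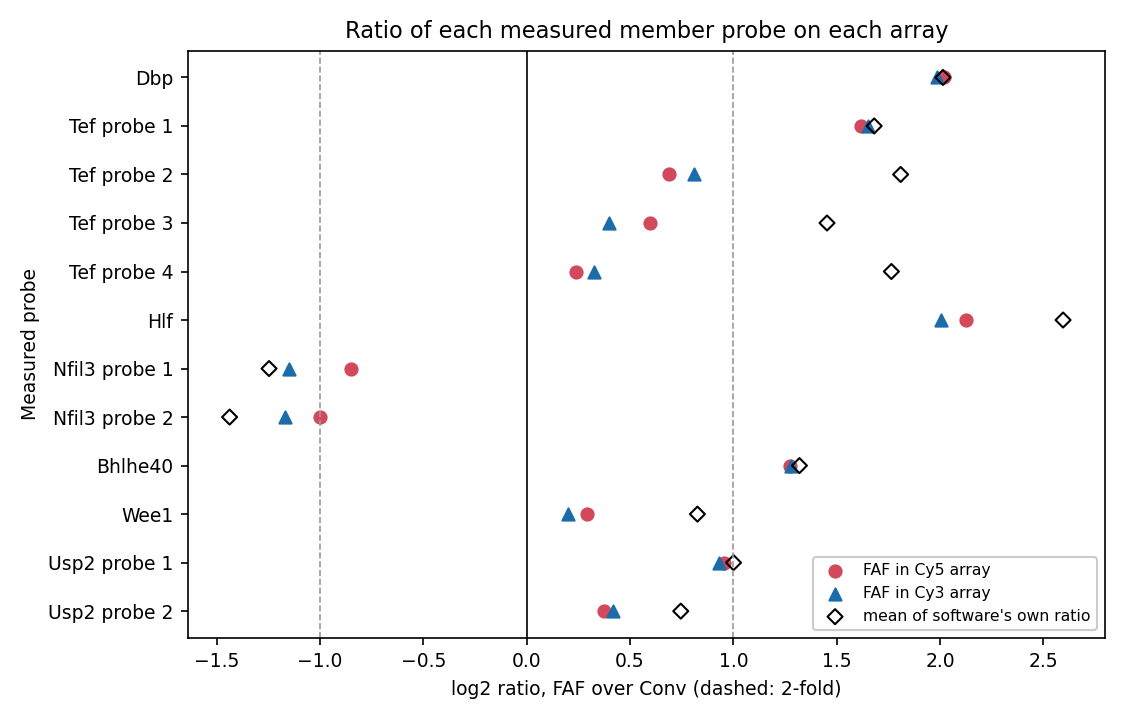
The log2 ratio of FAF over Conv of each of the 12 measured member probes, with FAF in Cy5 (circles) and with FAF in Cy3 (triangles), and the mean of the scanner software's own ratio (open diamonds). Dashed lines mark 2-fold. All 12 probes have the same sign on both arrays, 10 above 0 and the 2 Nfil3 probes below, and the dim Tef probes move from between 0.28 and 0.75 to between 1.45 and 1.81 with the software's ratio.

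The activators and Nfil3 compete for the same sites, so their ratios were set against each other. The mean ratio of Dbp, Tef and Hlf was 1.92 with FAF in Cy5 and 1.88 with FAF in Cy3. The mean of the 3 minus the ratio of Nfil3 was 2.77 on the first and 3.03 on the second, or 2.90 ± 0.13 in the mean. Activator signal relative to Nfil3 signal was thus 7.48-fold higher in FAF than in Conv, on the scale of ratios between diets. One by one, the ratio of Hlf lay 3.07 above that of Nfil3, that of Dbp 3.0 and that of Tef 2.64. With the software's ratio the difference was 3.34, and with the mean over each gene's probes it was 2.66. These are messenger RNA signals, and the levels of different probes cannot be set against each other.

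Bhlhe40, also called DEC1, encodes a repressor that binds E-boxes and opposes CLOCK and BMAL1. Its intensities were 1405 and 1361 in Conv and 3372 and 3532 in FAF. The ratio was 1.28 ± 0.0031 (1.27 and 1.28), or 2.42-fold higher in FAF, which 145 genes exceeded. Its probe lies at chr6:108616309-108616368 on the plus strand in mm9. The related Bhlhe41, or DEC2, had intensities of 5.43 and 5.01 in FAF and of 7.27 and 6.24 in Conv on one probe, and of 20.7 and 11.1 against 15.2 and 26.7 on the other. None of these was well above background, so Bhlhe41 has no fold here.

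Usp2 encodes a deubiquitinase whose substrates include clock proteins, and its messenger is rhythmic in many tissues. Its brighter probe (chr9:43900824-43900883 in mm9, plus strand) had intensities of 1218 and 1312 in Conv and of 2462 and 2599 in FAF. The ratio was 0.94 ± 0.01, or 1.92-fold, with 306 genes above it. The other probe, at chr9:43903036-43903095, had 187 and 164 in Conv and 303 and 285 in FAF, and a ratio of 0.40 ± 0.02. By the software's ratio these were 1.0 and 0.75.

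Wee1, a kinase that holds cells before mitosis and a known target of CLOCK and BMAL1, gave the ratio nearest to 0 of the measured members. Its intensities were 28.3 and 37.8 in Conv, where 1 of the 2 arrays was well above background, and 56.1 and 60.0 in FAF. Both diets lay near the dim end of the array. The ratio was 0.25 ± 0.04, or 1.19-fold, and 3033 genes had a higher one. The software's ratio was 0.83. The probe lies at chr7:117283161-117283220 on the plus strand in mm9.

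A rule of size stood in for a test. To pass, a gene needed a mean of 2-fold or more and 1.5-fold or more in the same direction on each array. Of all measured genes, 1.53% passed as higher in FAF (263 genes) and 0.88% as lower (151 genes). Of the 7 measured members, 4 passed as higher, namely Hlf, Dbp, Tef and Bhlhe40, and 1 as lower, namely Nfil3. Usp2 and Wee1 did not pass. Since the members were chosen from this same contrast, nothing is read from these shares. Nfil3 passed by the narrowest margin: taken alone, the array with FAF in Cy5 put it at -0.85, short of 2-fold, and with median centring of the arrays it stood at -0.96. Usp2 was just short of the limit and passed with the software's ratio.

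**Figure D3:**
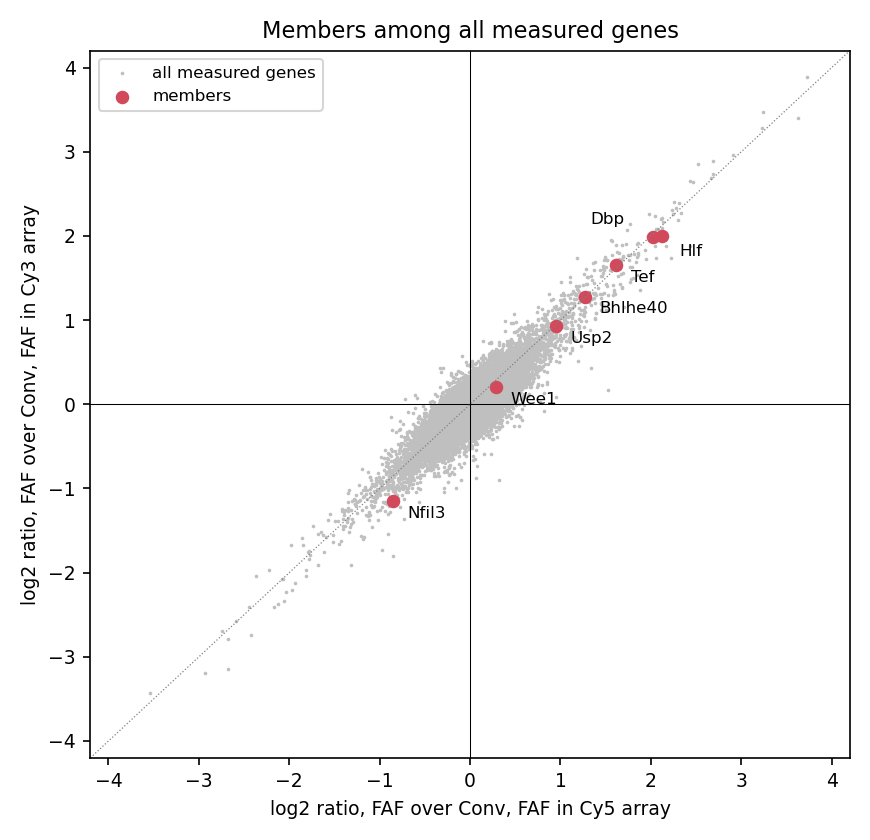
The log2 ratio of FAF over Conv of all 17162 measured genes (grey), with FAF in Cy5 on the horizontal and FAF in Cy3 on the vertical axis, and the 7 measured members (red). The dotted line marks equal ratios. Dbp and Hlf lie at about 2 on both axes, Tef, Bhlhe40 and Usp2 lower on the diagonal, Wee1 within the main cloud, and Nfil3 at -0.85 and -1.15.

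Genes nearest to Dbp in ratio were sought over the 2 arrays, as the smallest distance between pairs of ratios. They were Cyp2b10 at 1.97 ± 0.03, Aadac at 1.98 ± 0.02 and Cyp2b9 at 2.04 ± 0.05. Cyp2b10 and Cyp2b9 encode cytochromes P450 of a family with near-identical members, which can share signal between probes, and Aadac encodes a deacetylase of the endoplasmic reticulum. With a single contrast, likeness means only a ratio of similar size.

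Of 16 genes known as targets of the PAR bZIP factors, 14 were measured, 7 passed as higher in FAF and 0 as lower. The median ratio of the 14 was 0.98, beside -0.00095 for all measured genes, of which 1.53% passed as higher and 0.88% as lower. This list and those below were chosen with earlier results of these data known. Their counts and medians are therefore a description and carry no test. The list shares 5 genes with the core clock list below, and the 9 measured targets outside that list had 4 higher, 0 lower and a median of 0.89. Cyp2b10, a cytochrome P450 induced by drugs, had intensities of 1220 and 1128 in Conv and of 5332 and 4784 in FAF. Abcb1a, the drug exporter P-glycoprotein, had 673 and 691 in Conv and 2703 and 2720 in FAF, a ratio of 1.80 ± 0.02. Ppara, a receptor for fatty acids, had a ratio of 1.16 ± 0.10, and Por, the reductase that passes electrons to cytochromes P450, had 1.06 ± 0.01.

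Further targets did not pass. Pdxk, the kinase that activates vitamin B6, stood at 0.89 ± 0.10, with another probe at 0.18. Nr1i3, the drug receptor CAR, had 0.86 ± 0.01, the peptide transporter Slc15a1 0.43 ± 0.07 and Cyp2a4 -0.26 ± 0.06, whose probe may share signal with the near-identical Cyp2a5. Alas1, which makes the first precursor of haem, was bright and near 0, with intensities of 16847 and 16878 in Conv and of 17052 and 17154 in FAF and a ratio of 0.06 ± 0.0043. It was singled out after its value was seen. Neither Cyp2a5 nor Cyp7a1 was measured. Promoter windows were found for 14 of the 16 listed targets. The D-box lay in a window of 1 of them, Per3, which did not pass, beside 1.06% of all windows. Sites outside the windows were not searched. With median centring, 4 targets passed as higher instead of 7.

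**Figure D4:**
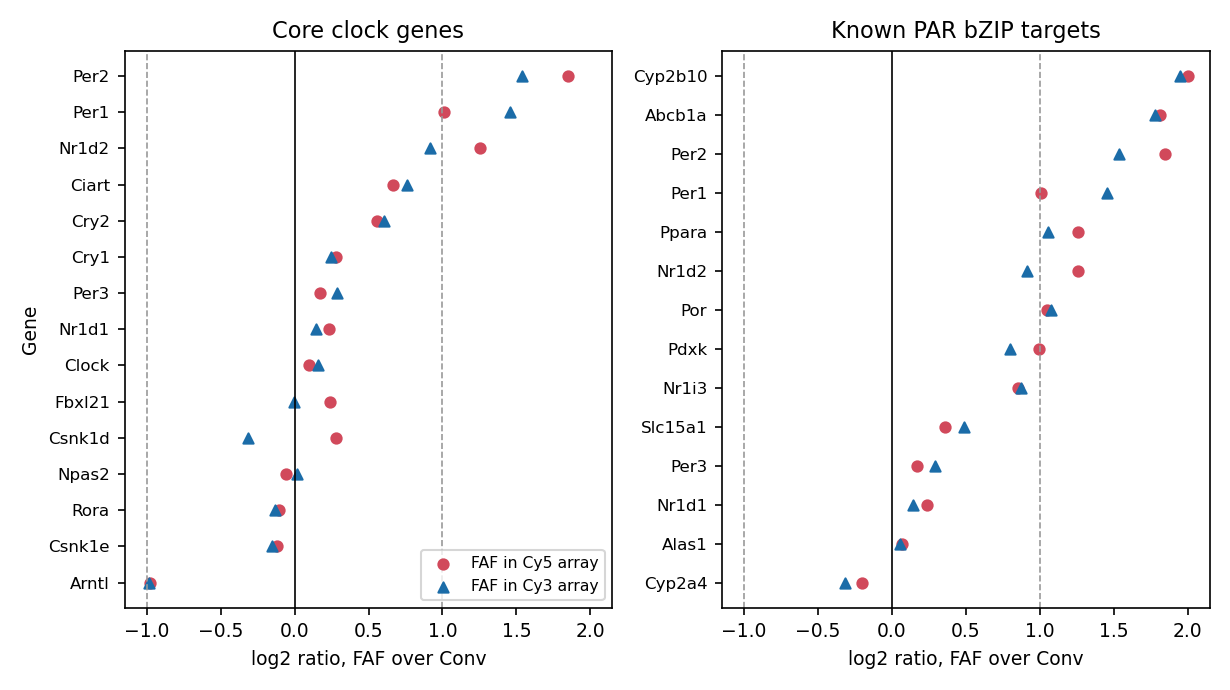
The log2 ratio of FAF over Conv of 15 of the measured core clock genes (left) and the 14 measured PAR bZIP targets (right), with FAF in Cy5 (circles) and with FAF in Cy3 (triangles). Dashed lines mark 2-fold, and 5 genes appear in both panels. Arntl lies lowest on the left at -0.98 and Per2 highest at 1.69, and on the right all genes but Cyp2a4 have a mean above 0.

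Of 17 core clock genes, all measured, 3 passed as higher and 0 as lower, with a median of 0.23. Those higher were the repressors Per2 at 1.69 ± 0.16, with another probe at 0.03, and Per1 at 1.23 ± 0.22, and Nr1d2 (REV-ERB beta) at 1.09 ± 0.17. Per1 and Nr1d2 are in the target list too, as is Per2. Nr1d1 (REV-ERB alpha), also a listed target, was near 0 at 0.19 ± 0.05, with its probes between -0.03 and 0.22. Its intensities were 1680 and 1603 in Conv and 1975 and 1819 in FAF. Like Alas1, it was singled out after its value was seen. Arntl had the lowest ratio, -0.98 ± 0.01, with intensities of 843 and 767 in Conv and of 358 and 317 in FAF, just short of the limit and of the same sign as Nfil3. The repressor Ciart stood at 0.71 ± 0.04. Ciart, Per3 at 0.23 ± 0.06 and Cry1 at 0.26 ± 0.02 were well above background in Conv on only 1 of the 2 arrays. With the software's ratio, 6 clock genes passed as higher and 1 as lower, with Ciart at 2.09, Per3 at 1.16 and Arntl at -1.26.

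Markers of the cell types that the tissue could hold are given here beside the members. In whole tissue, fewer cells of a type and less RNA per cell cannot be told apart. Of 8 enterocyte markers, all measured, 3 passed as higher in FAF, Sis at 1.70, Lct at 1.62 and Alpi at 1.31, and the median was 0.41. The other markers did not pass, with Fabp2 at 0.44, Vil1 at 0.39, Krt20 at 0.38, Cdx2 at -0.09 and Cdx1 at -0.16. Their summed intensity was 700021 and 837718 in Conv and 1403845 and 1524903 in FAF, a sum to which Sis and Lct added most of the difference. All 6 smooth muscle markers had ratios below 0, with a median of -0.55 and none past the rule, and summed intensities of 198571 and 178780 in Conv and of 125518 and 126177 in FAF. Of 5 adipocyte markers 4 were measured, 3 of them passed as lower, and the median was -1.60. Their summed intensity was 9763 and 9217 in Conv and 1373 and 1346 in FAF, and Lep was not measured. Natural killer and innate lymphoid markers had 5 of 7 measured and 0 past the rule, with ratios from -0.12 to 0.25. Ncr1 and Eomes were not measured. Their summed intensity was 794 and 739 in Conv and 857 and 775 in FAF. Exocrine pancreas markers had 3 of 5 measured and a median of 0.07, with Sycn higher at 1.28, Cpa1 at 0.07 and Cela1 at -0.05. Of 4 hepatocyte markers 2 were measured, at -0.16 (Alb) and 0.15. Cpa1 in Conv and Alb in FAF were not well above background on either array. By the software's ratio Cpa1 stood at 0.69 and Alb at -0.80. The part of these markers in the ratios of the clock output genes was not tested.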

How the data were processed

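RNA from 1 small intestine sample per diet was measured on 2 dye-swapped two-colour arrays. Per the file headers, the authors extracted spot intensity on a linear scale and a log10 ratio of Cy5 over Cy3, corrected for background and dye, with Agilent Feature Extraction 11.5.1.1. Quality flags come from the same deposited files. The deposited value table of log10 ratios equals the scanner column to within 5.0e-08. Intensities printed are the software's processed signals.

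Ratios were recomputed in limma 3.58.1 (R 4.3.3) from mean spot signals: normexp background correction (offset 50), then loess within arrays that gave control spots no weight. They were turned to FAF over Conv by the labelled dyes and averaged over the arrays, which counts as 1 replicate. Spots flagged as outliers were dropped, and no spot was saturated. A measured probe was well above background on both arrays in at least 1 diet (25440 of 41174 probes). A gene is given by its brightest measured probe. Symbols came from RefSeq for 27668 probes. The number of RNA samples, 1 per diet, limits what the ratios say about a diet, and the 2 arrays limit only their technical precision. The loess step and the rule of size were tested on simulated ratios, with changes placed only in brighter spots. Background correction, the offset, flags and the choice of probe were not part of that test.

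The members, lists, alternatives and naming rule were chosen with earlier results of these data known. Beside the members, the text names up to 8 genes of each list that pass and up to 4 others of largest ratio, those dim in a diet, and the 3 genes nearest to Dbp. Marker genes that pass are also named, and Alas1 and Nr1d1 are named outside this rule. Some genes that the rule picks are not reported here.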

Additional observations from a re-analysis of the deposited data

How the results depend on the processing

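All alternatives were planned, though with earlier results of these data known. None changed the sign of a measured member, but several could not. The fold limits do not touch the ratios, and the value table repeats the software's ratio. Other filters on dim probes left the ratios of the members they kept unchanged. Over the alternatives, Dbp ranged from 1.99 to 2.02, Hlf from 2.0 to 2.60, Bhlhe40 from 1.27 to 1.34, Tef from 0.79 to 1.69, Usp2 from 0.67 to 1.0, Wee1 from 0.20 to 0.83 and Nfil3 from -1.25 to -0.85. The number of lower members was 0 when the FAF in Cy5 array was taken alone, with median centring and with a 4-fold limit, which left 2 members higher. The mean of the activators minus Nfil3 was 3.34 with the software's ratio or the deposited value table, 3.16 with an offset of 10 and 2.66 with the mean over a gene's probes. Core clock genes numbered 6 higher and 1 lower with the software's ratio, the value table and a 1.5-fold limit, 1 lower with an offset of 10 or no background correction, and 0 higher with a 4-fold limit. PAR bZIP targets numbered 4 higher with median centring and 0 with a 4-fold limit. Over all genes, the software's ratio and the value table gave 487 higher and 350 lower, a 1.5-fold limit 775 and 616, a 4-fold limit 31 and 18, and median centring 82 lower. The offset shrinks the ratios of dim probes, as the constant is added to both channels. Signal over background limits Wee1, Bhlhe41 and the dim Tef probes, and 1 RNA sample per diet limits every ratio. No paired analysis was possible because each diet has 1 RNA sample.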
